A study of Mus musculus with 11 samples.

Results

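The 10 genes described here encode the adhesive cadherins and the plaque proteins of the desmosome. They are the desmogleins *Dsg1a*, *Dsg2* and *Dsg3*, the desmocollins *Dsc1*, *Dsc2* and *Dsc3*, and the plaque genes *Dsp*, *Jup*, *Pkp1* and *Pkp3*. They were chosen by name and matched by Ensembl identifier, 10 of 55536 genes in the count files, and all 10 were above the filter on low counts that left 20307 genes for testing. RNA was sequenced from epidermal cells of the back skin (EBS) of male *CD4Cre/tdT* mice (CD4Cre R26-tdT on C57Bl6/N), in which Cre driven by *CD4* marks cells and their progeny with the red reporter tdTomato (tdT). Cells were released with thermolysin and sorted by FACS for CD49f and CD34, SCA-1 and tdT. The 11 libraries form 4 groups. CD49f+CD34+ SCA-1neg cells, which is the sort for the hair follicle bulge and is called CD49f+CD34+ below, gave 3 tdT+ and 3 tdTneg libraries. CD49f+CD34+SCA-1+ cells, called SCA-1+ below, gave 3 tdT+ and 2 tdTneg libraries. Every mouse carried both alleles, so a tdTneg cell is an unmarked cell of the same genotype and not a cell of a mouse without Cre. Each library came from the pooled cells of 2 mice, aged 29 weeks for replicate 1 and 32 weeks for replicates 2 and 3, and libraries with the same replicate number were taken to share a pool, which the labels do not state.

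Desmosomes are spot-like junctions that anchor the keratin filaments of neighbouring keratinocytes to each other. Desmogleins and desmocollins bridge the gap between cells, their tails bind plakoglobin (*Jup*) and plakophilins, and desmoplakin (*Dsp*) ties this plaque to the keratins. In the interfollicular epidermis (IFE) the isoforms change with height: *Dsg3* and *Dsc3* are known as cadherins of the basal layer, *Dsg1* and *Dsc1* as those of the upper layers, and *Dsg2* and *Dsc2* as the widely expressed forms of many epithelia. Plakophilin 1 is likewise best known from the suprabasal layers and plakophilin 3 from all layers.

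Between 17409131 and 46542177 counts per library fell on genes. The members were measured with 121 counts (*Dsc1* in 1 tdTneg CD49f+CD34+ library) to 193863 counts (*Dsp* in 1 tdT+SCA-1+ library), so counting error was small beside the differences between libraries. Sort markers followed the labels in part. *Ly6a*, which encodes SCA-1, was at 153 to 294 CPM (counts scaled by library size) in SCA-1+ libraries and at 2.45 to 59.2 CPM in CD49f+CD34+ libraries. *Cd34* was at 467 to 1129 CPM in CD49f+CD34+ libraries, at 319 to 382 CPM in tdTneg SCA-1+ libraries and at 22.3 to 35.6 CPM in tdT+SCA-1+ libraries, where the transcript of this sort marker was thus low. One row of the files, outside the Ensembl genes and not described in the sources used here, was at 133 to 307 CPM in 5 of the 6 tdT+ libraries and at 2.54 to 4.89 CPM in the 5 tdTneg libraries. The library labelled as replicate 2 of tdT+CD49f+CD34+ cells had 2.05 CPM of it, at the level of the tdTneg libraries, and values with this library omitted are given below beside tests of *Dsg1a*, *Dsc1*, *Pkp1*, *Pkp3* and *Klk7* and beside several marker sums.

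The 6 cadherin genes lie in 1 cluster on chromosome 18 (GRCm38). *Dsc3* (19960930 to 20002351), *Dsc2* (20030633 to 20059554) and *Dsc1* (20084184 to 20114871) are on the minus strand. *Dsg1a* (20310811 to 20343350), *Dsg3* (20510274 to 20547459) and *Dsg2* (20558074 to 20604521) follow on the plus strand, with *Dsg1c* between *Dsc1* and *Dsg1a*, and *Dsg1b* and *Dsg4* between *Dsg1a* and *Dsg3*. The plaque genes are scattered, *Dsp* on chromosome 13, *Jup* on chromosome 11, *Pkp1* on chromosome 1 and *Pkp3* on chromosome 7. *Dsg1a* lies beside the close copies *Dsg1b* and *Dsg1c*, among which reads can be split or lost, so its counts are uncertain. *Dsg2* overlaps *Gm16090* and *Dsp* overlaps *Gm10129* on the opposite strand, and *Pkp1* overlaps *Gm36938* on its own strand. Reads from the shared stretch of *Pkp1* and *Gm36938* cannot be told apart by strand. Those of the other 2 pairs cannot be told apart where the strand was not used, and the strand setting of the counting is not given in the sources used here.

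Per kilobase of exon, *Dsp* was the most abundant of the 10 transcripts and the basal-layer members of the cadherins, *Dsg3* and *Dsc3*, were above their relatives in the mean over libraries. The mean level over 11 libraries was 403 CPM per kilobase (SD 75.0) for *Dsp*, 286 (SD 129) for *Pkp1*, 253 (SD 59.2) for *Dsc3*, 226 (SD 75.5) for *Jup* and 179.6 (SD 22.4) for *Pkp3*. It was 82.7 (SD 14.1) for *Dsg3*, 60.5 (SD 51.0) for *Dsg1a*, 11.04 (SD 3.27) for *Dsg2*, 8.97 (SD 6.58) for *Dsc1* and 2.45 (SD 1.57) for *Dsc2*. The step from *Pkp3* down to *Dsg3* was present in 11 of 11 libraries and the ranges of these genes did not overlap. The ranges of all other neighbours in this order overlapped, and *Pkp1* was above *Dsc3* in 6 of 11 libraries, *Dsg3* above *Dsg1a* in 7 and *Jup* above *Pkp3* in 8. *Dsg1a* and *Dsc1* varied most among libraries, 34.1-fold and 37.7-fold between the lowest and the highest CPM, whereas *Pkp3*, *Dsg3* and *Dsp* varied 1.52-fold, 1.68-fold and 1.77-fold. Together the 10 genes took 0.624% to 0.968% of gene counts in CD49f+CD34+ libraries and 0.989% to 1.41% in SCA-1+ libraries, with no overlap. In bulk RNA, fewer cells that express a gene and less of its RNA per cell cannot be told apart.

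**Figure D1:**
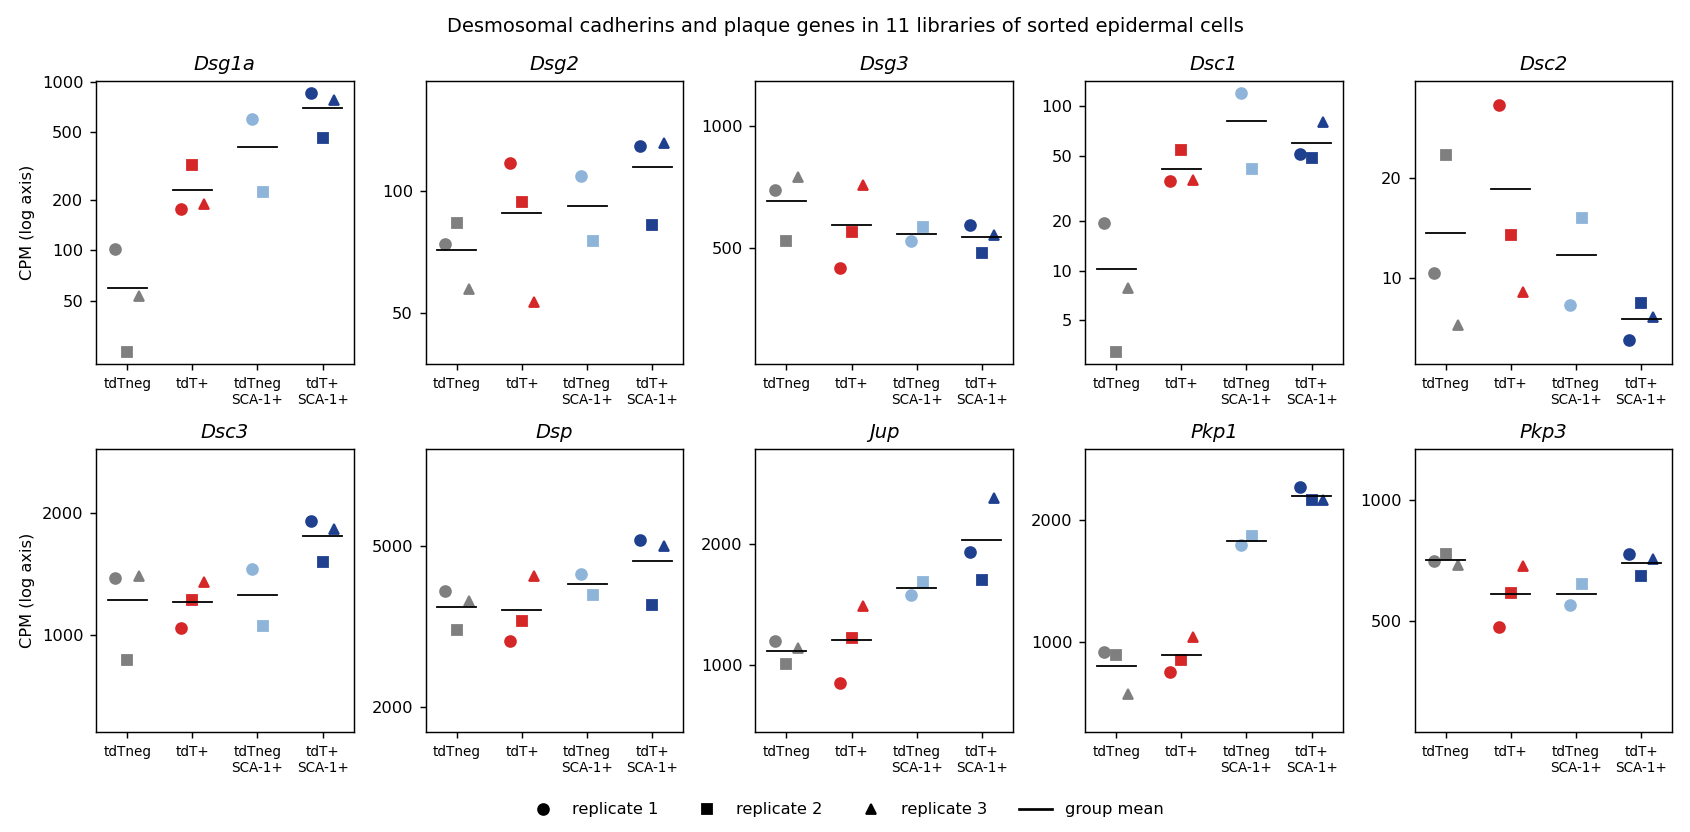
Level of each of the 10 genes in CPM (log axis) in every library of the 4 groups, with 1 point per library, the symbol giving the replicate number and the line the group mean; tdTneg and tdT+ without further label are CD49f+CD34+ cells. *Pkp1* and *Jup* separate the 5 SCA-1+ from the 6 CD49f+CD34+ libraries, *Dsg1a* and *Dsc1* are lowest in the 3 tdTneg CD49f+CD34+ libraries, and *Pkp3*, *Dsg3* and *Dsp* stay within narrow ranges.

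The first comparison asks how SCA-1+ cells differ from CD49f+CD34+ cells, averaging the difference found in tdT+ and that found in tdTneg cells. *Dsg1a*, *Dsc1* and *Pkp1* were higher in SCA-1+ cells by more than 2-fold, *Jup* rose less, and the other 6 genes did not pass the test. A gene was called when its edgeR adjusted p was below 0.05 and its change exceeded 1 on the log2 scale in either direction, and these 3 of the 10 members were called, all higher. Of all genes tested, 4.77% were called higher, 6.79% lower and 11.6% in either direction. The median log2 fold change was 0.33 over the 10 members and -0.09 over all genes tested. A member's libraries did not overlap between the populations for *Jup* and *Pkp1*, 2 of the 10 members and both higher in SCA-1+ libraries, against 10.8% of all genes tested (5.1% higher).

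Desmoglein 1 was the cadherin with the clearest change. *Dsg1a*, whose protein is the main desmoglein of the upper epidermal layers, was at 101.4, 25.004 and 53.8 CPM in tdTneg CD49f+CD34+ libraries (replicates 1, 2 and 3, in that order throughout) and at 176, 320.2 and 189 CPM in tdT+CD49f+CD34+ libraries. In SCA-1+ libraries it was at 599 and 222 CPM (tdTneg) and at 852, 465 and 779 CPM (tdT+). The lowest SCA-1+ library was therefore below the highest CD49f+CD34+ library, which was the one labelled tdT+ replicate 2, while within each tdT status the populations did not overlap. The log2 fold change was 2.19 (SE 0.39, edgeR adjusted p = 0.00415). Omitting the library labelled as replicate 2 of tdT+CD49f+CD34+ cells gave 2.35 (SE 0.42, adjusted p = 0.00597), and the value was 2.09 (SE 0.35) when the counts of *Dsg1a*, *Dsg1b* and *Dsg1c* were summed.

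*Dsg3*, the basal desmoglein and the antigen of pemphigus vulgaris, moved little. Its levels were 695, 521 and 748 CPM in tdTneg and 446, 548 and 716 CPM in tdT+ CD49f+CD34+ libraries. In SCA-1+ libraries they were 520.5 and 563 CPM (tdTneg) and 571, 485 and 537 CPM (tdT+), inside the range of the CD49f+CD34+ libraries. Between the populations *Dsg3* had a log2 fold change of -0.19 (95% confidence interval -0.53 to 0.15, edgeR adjusted p = 0.422).

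*Dsg2*, the desmoglein of simple epithelia and heart that is also present in skin, was below *Dsg3* in every library. It was at 74.0, 83.3 and 57.1 CPM in tdTneg and 117, 93.8 and 53.0 CPM in tdT+ CD49f+CD34+ libraries. In SCA-1+ libraries it was at 108 and 75.0 CPM (tdTneg) and at 129, 82.4 and 131 CPM (tdT+), which overlapped the other population. For *Dsg2* the log2 fold change was 0.37 (95% confidence interval -0.13 to 0.86, edgeR adjusted p = 0.273).

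Among desmocollins, *Dsc1* followed *Dsg1a* at a far lower level. *Dsc1*, the desmocollin of the upper layers, was at 19.6, 3.20 and 7.88 CPM in tdTneg and at 35.1, 54.1 and 35.9 CPM in tdT+ CD49f+CD34+ libraries. It was at 121 and 41.4 CPM in tdTneg and at 51.3, 48.6 and 79.9 CPM in tdT+ SCA-1+ libraries. The tdTneg CD49f+CD34+ libraries stood below all others, and the tdT+CD49f+CD34+ libraries overlapped the SCA-1+ libraries. *Dsc1* was higher in SCA-1+ cells by 1.75 on the log2 scale (SE 0.44, edgeR adjusted p = 0.0206), and by 1.87 (SE 0.49, adjusted p = 0.0293) with the library labelled as replicate 2 of tdT+CD49f+CD34+ cells omitted. This call rested on 1 library: without tdTneg SCA-1+ replicate 1, *Dsc1* had a log2 fold change of 1.26 (SE 0.44, edgeR adjusted p = 0.136).

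*Dsc3*, the basal desmocollin, made up 91.4% to 98.9% of the summed *Dsc1*, *Dsc2* and *Dsc3* level per kilobase in every library. It was at 1385, 869.6 and 1404 CPM in tdTneg and 1042, 1221 and 1358 CPM in tdT+ CD49f+CD34+ libraries, and at 1460.1 and 1055.5 CPM (tdTneg) and 1914, 1517 and 1835 CPM (tdT+) in SCA-1+ libraries. The tdT+SCA-1+ libraries were the highest of the 11, and the tdTneg libraries of the 2 populations overlapped. The log2 fold change of *Dsc3* was 0.29 (95% confidence interval -0.09 to 0.68, edgeR adjusted p = 0.265).

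*Dsc2*, the widely expressed desmocollin, had the lowest mean per kilobase of the 10 genes over the 11 libraries, although *Dsc1* was below it in the mean of the tdTneg CD49f+CD34+ libraries (2.03 against 2.58 CPM per kilobase), through replicate 2. *Dsc2* was at 10.3, 23.4 and 7.20 CPM in tdTneg and 33.1, 13.5 and 9.04 CPM in tdT+ CD49f+CD34+ libraries, and at 8.26 and 15.1 CPM (tdTneg) and 6.50, 8.40 and 7.64 CPM (tdT+) in SCA-1+ libraries. Levels above 20 CPM occurred in 1 library of each CD49f+CD34+ group. *Dsc2* had a log2 fold change of -0.76 (95% confidence interval -1.68 to 0.15, edgeR adjusted p = 0.223). As a description over 11 libraries, log2 CPM of *Dsc2* and *Dsc3* had a Pearson r of -0.87, the most negative of the desmocollin pairs.

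In the plaque, *Pkp1* had the smallest standard error of the 3 called members. *Pkp1*, whose protein clusters desmoplakin and is lost in ectodermal dysplasia with skin fragility, was at 945, 928 and 744 CPM in tdTneg and 844, 902 and 1029 CPM in tdT+ CD49f+CD34+ libraries. It was at 1730.2 and 1819 CPM in tdTneg and 2404, 2233 and 2233 CPM in tdT+ SCA-1+ libraries, so the lowest SCA-1+ library was well above the highest CD49f+CD34+ library. *Pkp1* was higher in SCA-1+ cells by 1.17 on the log2 scale (SE 0.12, edgeR adjusted p = 0.000348), a value that stayed between 1.11 and 1.21 when each library was left out in turn.

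*Pkp3*, the plakophilin of all layers and of many epithelia, did not follow *Pkp1*. It was at 704, 734 and 689 CPM in tdTneg and 484, 587 and 684 CPM in tdT+ CD49f+CD34+ libraries, and at 550.15 and 620.3 CPM (tdTneg) and 732, 647 and 712 CPM (tdT+) in SCA-1+ libraries. The populations overlapped almost fully. Its log2 fold change was -0.01 (95% confidence interval -0.27 to 0.25, edgeR adjusted p = 0.96).

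*Jup* encodes plakoglobin, the plaque protein that desmosomes share with adherens junctions. It was at 1148, 1007 and 1104 CPM in tdTneg and 904, 1171 and 1401 CPM in tdT+ CD49f+CD34+ libraries, and at 1493 and 1609 CPM (tdTneg) and 1905, 1629 and 2594 CPM (tdT+) in SCA-1+ libraries. All 5 SCA-1+ libraries were above the 6 others. The log2 fold change was 0.67 (SE 0.17, edgeR adjusted p = 0.0207), past the p threshold and under the fold threshold, so *Jup* was not called. It missed the p threshold when either tdTneg SCA-1+ library was omitted (edgeR adjusted p = 0.0744 without replicate 1 and 0.078 without replicate 2).

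*Dsp*, the linker to keratin, was at 3871, 3108 and 3661 CPM in tdTneg and 2922, 3259.8 and 4229.5 CPM in tdT+ CD49f+CD34+ libraries, and at 4267 and 3787 CPM (tdTneg) and 5166, 3577 and 5009 CPM (tdT+) in SCA-1+ libraries. These ranges overlapped, and its log2 fold change was 0.29 (95% confidence interval -0.09 to 0.68, edgeR adjusted p = 0.262).

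*Jup* and *Dsp* rose and fell together over the 11 libraries (Pearson r = 0.85 of log2 CPM, and 0.77 of the deviations from the group means). Other pairs had similar coefficients over all libraries, such as *Jup* and *Pkp1* (0.88 and 0.33) and *Dsc3* and *Dsp* (0.85 and 0.79). The upstream sequences of *Jup* and *Dsp* are shown because the promoter table from RefSeq (GRCm38.p6) held these 2 of the 10 members. A link between these sequences and the levels was not tested. The RefSeq start of *Jup* lies upstream of the Ensembl gene, and that of *Dsp* coincides with it. Each run gives the 250 bases before the RefSeq start, 5′ to 3′ on the gene's strand, chr11:100397791-100398040 (minus strand) for *Jup* and chr13:38151044-38151293 (plus strand) for *Dsp*. Capitals mark matches on either strand to the GC box GGGCGG and to CCAAT.
Jup: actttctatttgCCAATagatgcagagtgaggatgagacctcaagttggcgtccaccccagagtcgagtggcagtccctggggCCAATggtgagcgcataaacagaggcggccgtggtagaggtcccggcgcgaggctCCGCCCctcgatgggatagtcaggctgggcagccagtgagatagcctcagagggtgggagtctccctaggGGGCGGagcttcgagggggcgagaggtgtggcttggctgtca
Dsp: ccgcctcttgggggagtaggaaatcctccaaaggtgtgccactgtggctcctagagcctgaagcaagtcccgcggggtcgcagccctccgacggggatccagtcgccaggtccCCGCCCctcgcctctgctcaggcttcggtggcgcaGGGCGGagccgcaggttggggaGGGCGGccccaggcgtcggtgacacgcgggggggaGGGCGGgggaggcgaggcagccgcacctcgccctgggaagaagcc
Both windows were rich in G and C (62.0% for *Jup*, 72.4% for *Dsp*) and held GC boxes, with matches ending at bases -107 and -37 from the start in *Jup* and at bases -132, -97, -75 and -40 in *Dsp*. A GC box occurred in 32.7% of 32851 RefSeq promoter windows of this length. CCAAT occurred in the *Jup* window and in 33.8% of all windows. Neither window held the AP-1 motif TGANTCA (6.75% of all windows), TATAAA (12.4%) or the E-box CANNTG (66.2%). The motifs searched did not overlap one another in these windows.

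**Figure D2:**
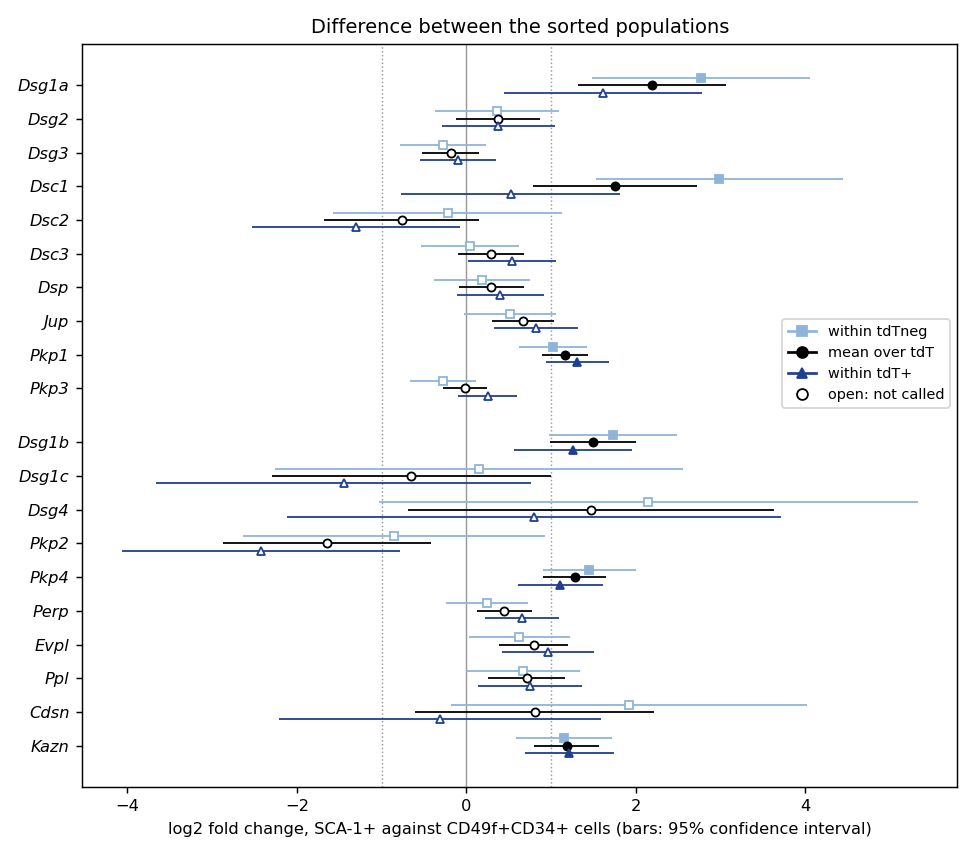
log2 fold change of SCA-1+ against CD49f+CD34+ cells (horizontal axis, bars are 95% confidence intervals) for the 10 members and, below the gap, 10 further desmosome genes, as the mean over tdT status, within tdTneg and within tdT+ cells; filled symbols were called and dotted lines mark the fold threshold. *Pkp1* has the narrowest interval of the called members and *Dsc1* is far to the right within tdTneg cells (2.98) and near 0.52 within tdT+ cells.

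Within tdT+ cells, *Pkp1* was the 1 member called (log2 fold change 1.31, SE 0.17, edgeR adjusted p = 0.00131), against 2.91% of all genes called higher, 5.54% lower and 8.45% in either direction. *Jup* passed the p threshold at a log2 fold change of 0.82 (SE 0.22, adjusted p = 0.0402). *Dsg1a* had a log2 fold change of 1.61 (SE 0.52, adjusted p = 0.0718) and *Dsc1* one of 0.52 (SE 0.58, adjusted p = 0.583). DESeq2 and 3 other settings called *Dsg1a* or *Jup* in addition. With the library labelled as replicate 2 of tdT+CD49f+CD34+ cells omitted, *Pkp1* was called (1.29, SE 0.21, edgeR adjusted p = 0.00615) and *Jup* had an adjusted p of 0.0893. Libraries did not overlap for *Dsg1a*, *Dsc3*, *Jup* and *Pkp1* (SCA-1+ higher) and *Dsc2* (SCA-1+ lower), 5 of the 10 members, against 30.4% of all genes (15.4% higher).

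Within tdTneg cells, *Dsg1a* (log2 fold change 2.77, SE 0.58, edgeR adjusted p = 0.0246), *Dsc1* (2.98, SE 0.66, adjusted p = 0.0294) and *Pkp1* (1.02, SE 0.18, adjusted p = 0.0136) were called higher in SCA-1+ cells. These were 3 of the 10 members, against 3.29% of all genes called higher, 1.45% lower and 4.74% in either direction. The comparison rests on 2 SCA-1+ and 3 CD49f+CD34+ libraries, and single libraries decided it. Without tdTneg SCA-1+ replicate 1, or without tdTneg CD49f+CD34+ replicate 3, 0 members were called: the log2 fold changes of *Dsg1a*, *Dsc1* and *Pkp1* were then 1.87, 2.00 and 1.05 in the first case (edgeR adjusted p = 0.269, 0.31 and 0.112) and 2.698, 2.83 and 0.92 in the second (0.103, 0.119 and 0.0656). Without tdTneg SCA-1+ replicate 2, *Pkp1* had an adjusted p of 0.074 in edgeR. Fitting these 2 groups alone called only *Pkp1* of the members (edgeR adjusted p = 0.0262), with *Dsg1a* at 2.84 (adjusted p = 0.0573) and *Dsc1* at 3.06 (adjusted p = 0.076). Libraries did not overlap for *Dsg1a*, *Dsc1*, *Jup*, *Pkp1* (higher) and *Pkp3* (lower), 5 of the 10 members, against 46.3% of all genes (19.9% higher), so this share was near the background.

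Age was held constant among the 7 libraries of 32 weeks, since each group had 1 library of 29 weeks. Fitted alone, these 7 libraries gave log2 fold changes between the populations of 1.88 (SE 0.37) for *Dsg1a*, 1.70 (SE 0.38) for *Dsc1* and 1.16 (SE 0.21) for *Pkp1*, close to the values above. In this smaller fit, with 1 tdTneg SCA-1+ library assumed to vary like the rest, 0 members were called, with edgeR adjusted p-values of 0.0729, 0.1 and 0.0612, and 299 genes were called in place of 2347.

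Ratios of 2 genes within a library do not depend on how libraries are scaled. Of 5 ratios between an upper-layer or widely expressed gene and its relative, 2 differed between the 5 SCA-1+ and the 6 CD49f+CD34+ libraries after adjustment over the 5 (two-sided exact permutation test, 462 arrangements). The log2 ratio of *Pkp3* to *Pkp1* averaged -0.48 ± 0.24 (SD, n = 6) in CD49f+CD34+ libraries against -1.67 ± 0.09 (SD, n = 5) in SCA-1+ libraries, a difference of -1.19 (exact p = 0.00216, the smallest this design allows, adjusted p = 0.0108). No library overlapped: the ratio ran from -0.80 to -0.11 in CD49f+CD34+ and from -1.79 to -1.55 in SCA-1+ libraries. The 462 arrangements take the libraries as independent. Kept within replicate numbers, the arrangements gave a difference of -1.17 that passed narrowly (exact permutation, adjusted p = 0.0463).

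The log2 ratio of *Dsg1a* to *Dsg3* averaged -2.50 ± 1.41 (SD, n = 6) in CD49f+CD34+ libraries against -0.02 ± 0.79 (SD, n = 5) in SCA-1+ libraries, a difference of 2.48 (exact permutation p = 0.0152, adjusted p = 0.0379). Blocking on the replicate number, which takes libraries of one number to share a pool of mice, gave a difference of 2.47 that did not pass (exact permutation within numbers, adjusted p = 0.0694). Omission of 1 library ended this call in 8 of 11 cases, with differences from 2.10 to 2.82 and adjusted p of up to 0.0714 in the exact permutation test. These libraries were tdT+CD49f+CD34+ replicate 3 and tdTneg CD49f+CD34+ replicates 1, 2 and 3 (adjusted p = 0.0595 each, exact permutation test), and tdT+SCA-1+ replicates 1, 2 and 3 and tdTneg SCA-1+ replicate 1 (0.0714 each). The other 3 ratios did not pass: the difference was 1.46 for *Dsc1* to *Dsc3* (adjusted p = 0.133, exact permutation test), 0.59 for *Dsg2* to *Dsg3* (0.134) and -1.004 for *Dsc2* to *Dsc3* (0.134).

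**Figure D3:**
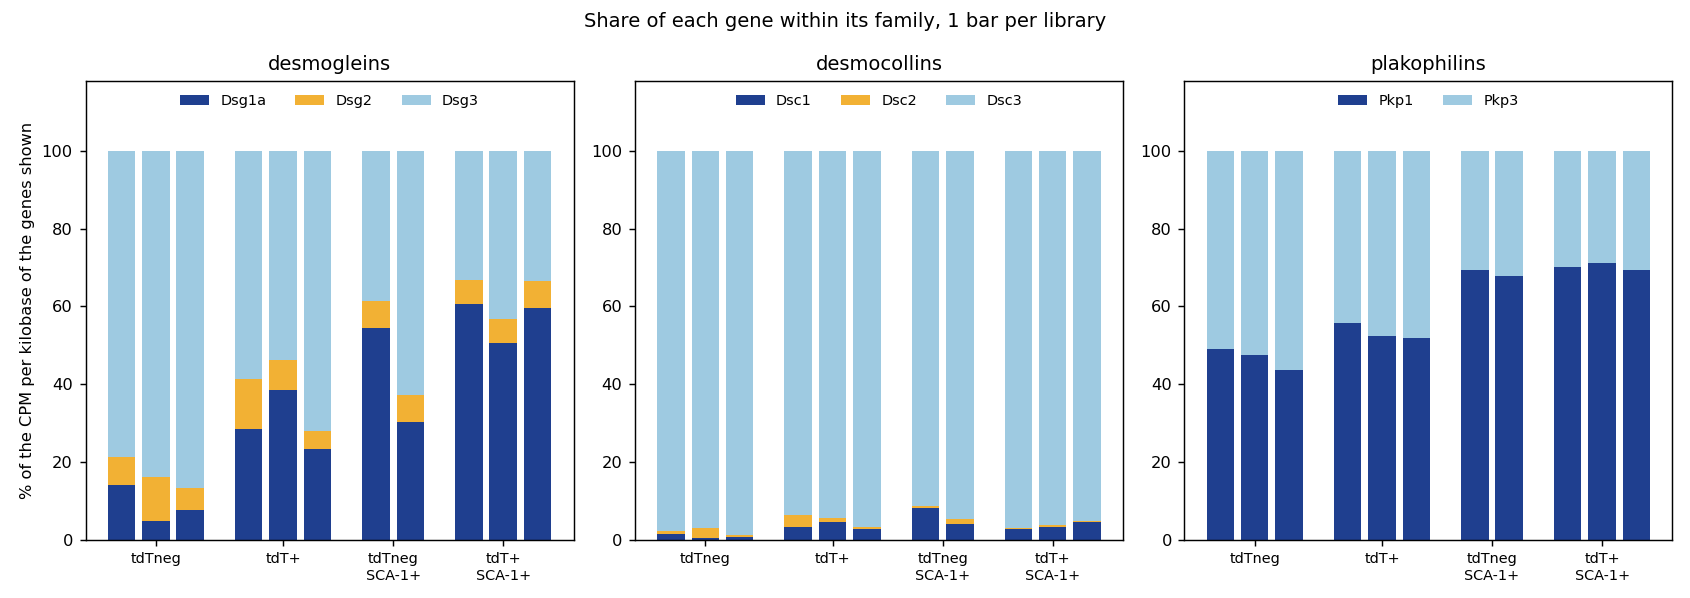
Share of each gene in the summed CPM per kilobase (vertical axis, %) of *Dsg1a*, *Dsg2* and *Dsg3* (left), of *Dsc1*, *Dsc2* and *Dsc3* (middle) and of *Pkp1* and *Pkp3* (right), with 1 bar per library in order of replicate number within each group. *Pkp1* takes 43.7% to 55.6% in CD49f+CD34+ and 67.9% to 71.3% in SCA-1+ libraries, *Dsg1a* takes 4.93% to 60.6%, and *Dsc3* dominates the desmocollins in every library.

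As shares per kilobase, the means of *Pkp1* and of *Dsg1a* within their families differed between groups. The shares themselves were not tested. *Pkp1* made up 50.1% ± 4.19 (SD, n = 6) of *Pkp1* and *Pkp3* together in CD49f+CD34+ and 69.6% ± 1.28 (SD, n = 5) in SCA-1+ libraries. *Dsg1a* made up 8.90% ± 4.72 (SD, n = 3) of the 3 desmogleins in tdTneg and 30.1% ± 7.70 (SD, n = 3) in tdT+ CD49f+CD34+ libraries (25.9% ± 3.57, SD, n = 2, with the one labelled replicate 2 omitted), and 42.4% ± 17.2 (SD, n = 2) in tdTneg and 56.98% ± 5.44 (SD, n = 3) in tdT+ SCA-1+ libraries. *Dsg3* was thus the leading desmoglein in the 6 CD49f+CD34+ libraries and in 1 tdTneg SCA-1+ library, and *Dsg1a* in the other 4 SCA-1+ libraries.

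The second comparison asks how tdT+ cells differ from tdTneg cells of the same population. In CD49f+CD34+ cells, *Dsg1a* and *Dsc1* had the largest differences of the members, 1.93 (SE 0.53) and 2.03 (SE 0.60) on the log2 scale, and their tdT+ libraries were above the tdTneg libraries without overlap. Neither passed the adjustment over all genes (edgeR adjusted p = 0.333 and 0.375). edgeR called 0 of the 10 members, against 0.00985% of all genes called higher and 0% lower (0.00985% in either direction), and 2 members, *Dsg1a* and *Dsc1*, had an unadjusted p under 0.05 (0.00453 and 0.00704 in edgeR). With the replicate number as a block, 4 genes in place of 2 were called over all genes, and 0 members. DESeq2 called both (adjusted p = 0.0015 and 0.00717), and so did edgeR when every gene with at least 1 count was kept (adjusted p = 0.0212 and 0.0354). Omitting the library labelled as tdT+ replicate 2, the differences were 1.61 (SE 0.56) and 1.79 (SE 0.66), with edgeR adjusted p-values of 0.599 and 0.618. Over all single omissions the differences ran from 1.56 to 2.54 for *Dsg1a* (without tdTneg CD49f+CD34+ replicates 2 and 1, in that order) and from 1.61 to 2.91 for *Dsc1* (without the same 2 libraries), and neither was called by edgeR in any of them. *Pkp3* was lower in tdT+ libraries without overlap (log2 fold change -0.28, SE 0.16, adjusted p = 0.679), and the value was -0.28 (SE 0.19, adjusted p = 0.791) with that library omitted. These 3 of the 10 members without overlap stand against 16% of all genes (5.07% higher).

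In SCA-1+ cells, edgeR and DESeq2 each called 0 of the 10 members between tdT+ and tdTneg cells, and 0 had an unadjusted p under 0.05 in edgeR. Of all genes, 0.251% were called higher and 2.06% lower (2.31% in either direction). The log2 fold changes ran from -0.64 (*Dsc2*, 95% confidence interval -1.97 to 0.70) to 0.77 (*Dsg1a*, -0.54 to 2.07), and intervals of this width cannot show that a member was unaffected. The 2 tdTneg libraries decided the value of *Dsg1a*, which was 1.65 (SE 0.73, edgeR adjusted p = 0.488) without replicate 1 and 0.18 (SE 0.66, adjusted p = 1) without replicate 2. *Dsc3*, *Jup*, *Pkp1* and *Pkp3* were higher in the 3 tdT+ than in the 2 tdTneg libraries without overlap, 4 of the 10 members, against 15.8% of all genes higher and 33% without overlap in either direction.

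The effect of tdT was then compared between the populations by an interaction term. For *Dsc1* the effect was 2.03 in CD49f+CD34+ and -0.44 in SCA-1+ cells, a difference of -2.46 (SE 0.87, unadjusted p = 0.0173 and adjusted p = 0.279 in edgeR). For *Pkp3* it was -0.28 and 0.25, a difference of 0.53 (SE 0.24, unadjusted p = 0.0483 and adjusted p = 0.399 in edgeR). edgeR called 0 of the 10 members with its main filter, and these 2 had an unadjusted p under 0.05. DESeq2 called *Dsc1* (-2.59, SE 0.81, adjusted p = 0.0343), and so did edgeR when every gene with at least 1 count was kept. Of all genes, 0.00985% were called higher and 0.379% lower in edgeR (0.389% in either direction). With the library labelled as replicate 2 of tdT+CD49f+CD34+ cells omitted, the difference for *Dsc1* was -2.23 (SE 0.92, edgeR adjusted p = 0.435) and that for *Pkp3* was 0.53 (SE 0.27, adjusted p = 0.522). Other omissions moved *Dsc1* further. Its tdT effect in SCA-1+ cells turned to 0.52 without tdTneg SCA-1+ replicate 1 and was -1.05 without replicate 2. The difference of the effects then stood at -1.48 (edgeR adjusted p = 0.714) and -3.08 (adjusted p = 0.399), and it reached -3.35 (adjusted p = 0.163) without tdTneg CD49f+CD34+ replicate 1.

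**Figure D4:**
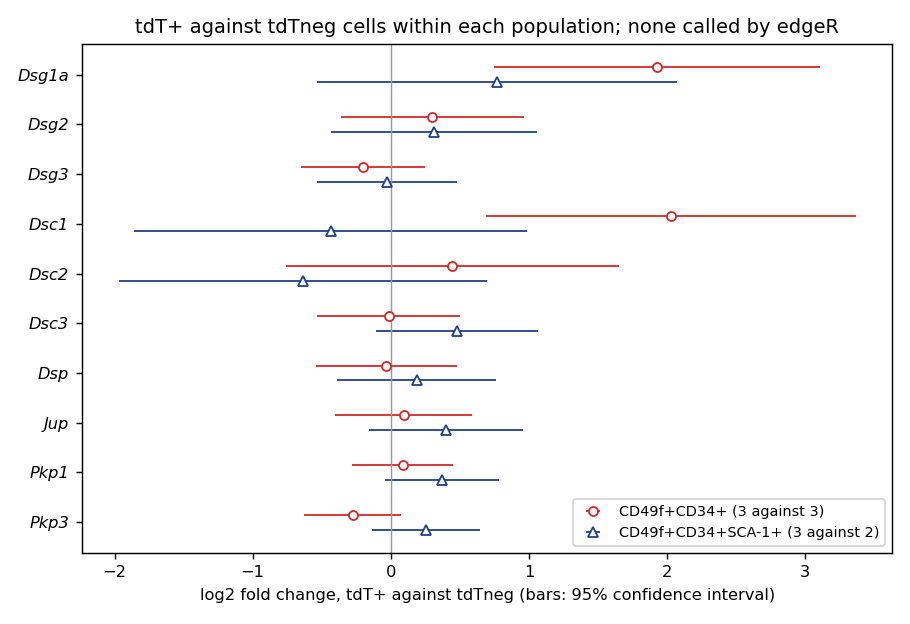
log2 fold change of tdT+ against tdTneg cells (horizontal axis, bars are 95% confidence intervals) for the 10 members in CD49f+CD34+ cells (circles) and in SCA-1+ cells (triangles). *Dsg1a* and *Dsc1* stand at 1.93 and 2.03 in CD49f+CD34+ cells, and none of the members was called by edgeR with its main filter. DESeq2 called these 2 in CD49f+CD34+ cells, and so did edgeR when every gene with at least 1 count was kept.

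Keratins of the same cells were read beside these values. *Krt1* and *Krt10*, the keratins of the suprabasal IFE, were higher in SCA-1+ than in CD49f+CD34+ cells by 2.97 (SE 0.56) and 2.23 (SE 0.55) on the log2 scale (edgeR adjusted p = 0.00554 and 0.0203). Basal *Krt14* was higher by 1.28 (SE 0.19, adjusted p = 0.00156) and basal *Krt5* had a log2 fold change of 0.26 (adjusted p = 0.347). Over the 11 libraries log2 CPM of *Dsg1a* and *Dsc1* had a Pearson r of 0.98 and 0.94 with *Krt10*, and of 0.91 and 0.92 after the group means were removed. *Pkp1* had an r of 0.75 with *Krt10* that came to 0.00 without the group means, and an r of 0.90 with *Krt14* that came to -0.04. The libraries share their scaling, 11 points are few, and these coefficients are descriptions. *Dsg1a* and *Dsc1* themselves had an r of 0.94, with and without the group means, whereas *Dsg1a* and *Dsg3* had one of -0.34 that came to 0.37 without the group means.

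**Figure D5:**
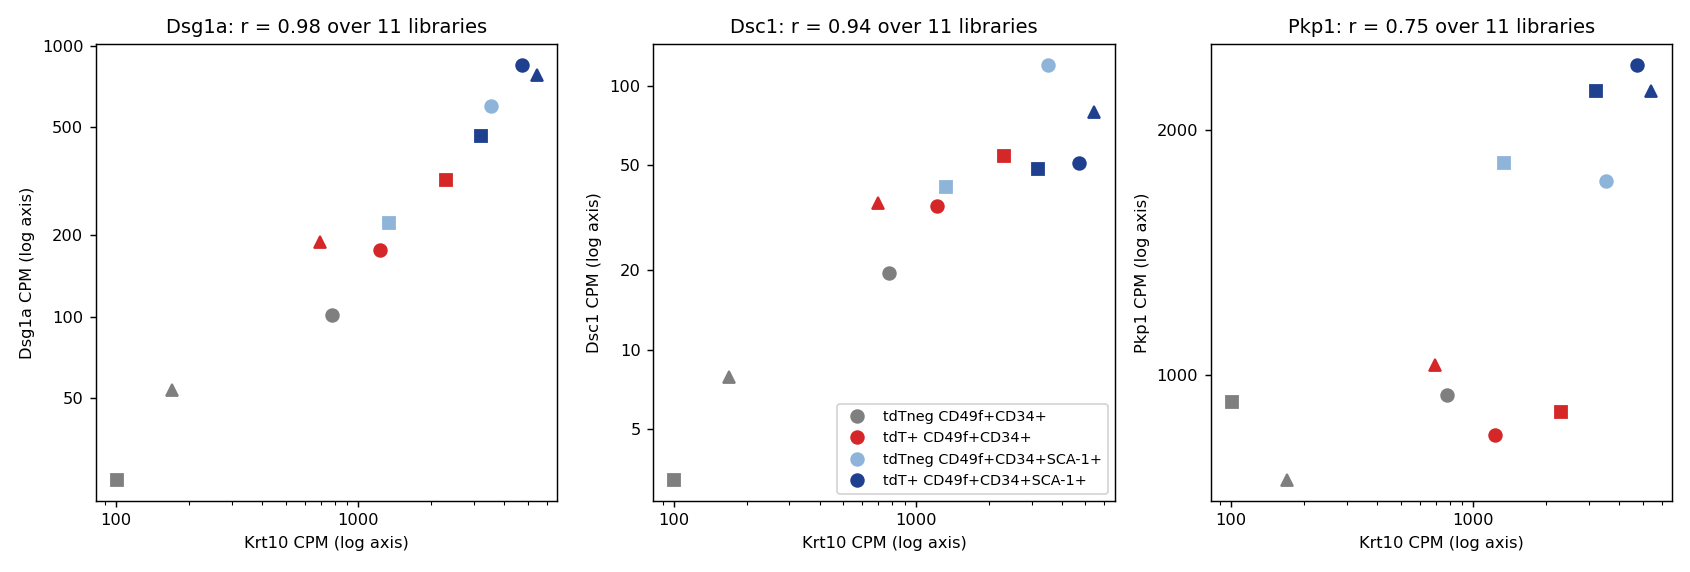
CPM of *Dsg1a*, *Dsc1* and *Pkp1* (vertical axes, log) against CPM of *Krt10* (horizontal axes, log) in the 11 libraries, coloured by group, with circles, squares and triangles for replicates 1, 2 and 3. *Dsg1a* and *Dsc1* follow *Krt10* also within groups (r = 0.98 and 0.94 over all libraries), while *Pkp1* falls into 2 levels, 744 to 1029 CPM in CD49f+CD34+ and 1730.2 to 2404 CPM in SCA-1+ libraries, whatever the level of *Krt10*.

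Markers of several cell types moved with the groups. The summed CPM of 6 suprabasal markers (*Krt1*, *Krt10*, *Krtdap*, *Sbsn*, *Ivl*, *Lor*) was 488 to 1698 in tdTneg and 1543 to 4059 in tdT+ CD49f+CD34+ libraries (2364 and 1543 in replicates 1 and 3, without the one labelled replicate 2), and 3019 to 6957 and 7088 to 9869.7 in tdTneg and tdT+ SCA-1+ libraries. Of these markers 3 of 6 were called higher in SCA-1+ cells. That of 6 bulge markers was 11268 to 21839 in CD49f+CD34+ and 4299 to 6979.9 in SCA-1+ libraries, with 6 of 6 called lower. T cell markers summed to 4.03 to 20.3 CPM in tdTneg and 54.3 to 65.3 CPM in tdT+ CD49f+CD34+ libraries, and to 68.9 to 88.0 and 273 to 724 CPM in tdTneg and tdT+ SCA-1+ libraries, with 5 of 5 called higher in SCA-1+ cells. Endothelial markers summed to 1309.8 to 1414 CPM in tdTneg SCA-1+ libraries, 25.6 to 49.8 CPM in tdT+SCA-1+, 23.2 to 80.3 CPM in tdTneg CD49f+CD34+ and 56.9, 337 and 4.74 CPM in tdT+CD49f+CD34+ libraries labelled replicates 1, 2 and 3. Langerhans cell markers summed to 10.6 to 225 CPM in CD49f+CD34+ libraries, of which 225 CPM was again the one labelled tdT+ replicate 2 and the others were at up to 69.1 CPM, and to 171 to 462 CPM in SCA-1+ libraries (3 of 3 called higher), and upper hair follicle markers to 645 to 1667 CPM and 1293 to 1521 CPM (1 of 3 called higher). Basal keratinocyte markers summed to 16218 to 24338 CPM in CD49f+CD34+ libraries, 22276 to 25249 CPM in tdTneg SCA-1+ and 30736 to 37330 CPM in tdT+SCA-1+ libraries, and 2 of 5 were called higher (*Krt14* and *Itga6*). Melanocyte markers summed to 23.6 to 61.6 CPM in CD49f+CD34+ and 5.73 to 33.2 CPM in SCA-1+ libraries, and 2 of 4 were called lower (*Dct* and *Tyrp1*). With that library omitted, *Tyrp1* (edgeR adjusted p = 0.0554) and the upper hair follicle marker *Krt79* (log2 fold change 0.92) were no longer called between the populations. Of the 4 endothelial markers, *Pecam1* (4.36, edgeR adjusted p = 0.000729) and *Cdh5* (3.14, adjusted p = 0.018) were then called higher in SCA-1+ cells. *Egfl7* (1.36, edgeR adjusted p = 0.0871) and *Kdr* (0.56, adjusted p = 0.712) were not called. The log2 fold changes of these 4, in this order, were 2.91, 1.11, -1.13 and -2.31 within tdT+ cells. Within tdTneg cells they were 5.81, 5.17, 3.85 and 3.44. No marker of these lists was at 0 in any library. The part of these cells in the levels of the members was not tested.

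Of 10 further genes of the desmosome, 3 were called higher in SCA-1+ cells, against the 4.77% of all genes given above, and their median log2 fold change was 0.80. They were *Dsg1b* (1.49, SE 0.23, edgeR adjusted p = 0.00194), *Pkp4* (1.28, SE 0.17, adjusted p = 0.000848), an armadillo protein of cell junctions, and *Kazn* (1.18, SE 0.17, adjusted p = 0.00156), which encodes the periplakin-binding protein kazrin. These 3 were also called within tdT+ and within tdTneg cells. *Dsg1b* shares sequence with *Dsg1a*, so the pair is not independent. The plakins *Evpl* (0.79, SE 0.18, adjusted p = 0.0142) and *Ppl* (0.71, SE 0.20, adjusted p = 0.0372) passed the p threshold under the fold threshold. *Perp*, a tetraspan protein needed for stable desmosomes, was the most abundant of the list (1643 to 3622 CPM) and had a log2 fold change of 0.45 (edgeR adjusted p = 0.0576). *Pkp2*, the plakophilin of heart and simple epithelia, was at 0.773 to 12.3 CPM (log2 fold change -1.64, SE 0.55, adjusted p = 0.0627). *Cdsn*, the corneodesmosin of the cornified layer, had 0.80 (SE 0.63, adjusted p = 0.407), and *Dsg1c* and *Dsg4* stayed at or under 2.215 CPM in every library. None of the 10 was called between tdT+ and tdTneg cells in either population in edgeR, and 1 of them, *Perp* in SCA-1+ cells, had an unadjusted p under 0.05 (0.0249 in edgeR).

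Among 6 proteases and inhibitors that act on corneodesmosomes, *Klk14* did not pass the filter and 1 of the 5 tested genes was called. *Klk7*, a kallikrein that cleaves corneodesmosomal proteins, was at 19.5 to 21.6 CPM in tdTneg and 40.1 to 47.5 CPM in tdT+ CD49f+CD34+ libraries, and at 82.7 and 96.05 CPM in tdTneg and 41.5 to 76.2 CPM in tdT+ SCA-1+ libraries. It was higher in SCA-1+ cells by 1.28 (SE 0.15, edgeR adjusted p = 0.000575) on the log2 scale. Its tdT effects, 1.11 in CD49f+CD34+ and -0.53 in SCA-1+ cells, differed by -1.64 (SE 0.30, edgeR adjusted p = 0.0589), which did not pass the threshold. Omitting the library labelled as replicate 2 of tdT+CD49f+CD34+ cells gave 1.30 (SE 0.17, edgeR adjusted p = 0.00126) for the populations and -1.60 (SE 0.33, adjusted p = 0.114) for the difference of the tdT effects. *Prss8*, the protease prostasin, was lower in SCA-1+ cells (-0.93, SE 0.29, adjusted p = 0.0469) under the fold threshold. *Klk5* (1.29, SE 0.55, adjusted p = 0.129), the inhibitor gene *Spink5* (1.10, SE 0.54, adjusted p = 0.176) and *St14* (0.28, SE 0.13, adjusted p = 0.167) did not pass in edgeR. Among 5 adherens junction genes the median log2 fold change was 0.15, and none passed in edgeR. The lowest p-values were those of the E-cadherin gene *Cdh1* (0.58, unadjusted p = 0.0266 and adjusted p = 0.096 in edgeR) and of *Ctnnb1*, the β-catenin gene (-0.26, unadjusted p = 0.05 and adjusted p = 0.145 in edgeR).

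The genes outside these lists whose pattern was most like the mean log2 CPM of the 10 members were *Chit1* (Pearson r = 0.99, 7.31 to 142 CPM), *Gm15987* (0.99, 0.659 to 27.7 CPM), *Dab1* (0.99, 0.475 to 42.1 CPM), the lipid transporter gene *Abca12* (0.99, 11.3 to 197 CPM) and *Il1f5* (0.99, 1.13 to 30.2 CPM). They were the 5 highest of 10113 genes with a mean of at least 10 CPM, over 11 libraries. In the mean they were compared with, *Dsg1a* and *Dsc1* are the members that varied most among libraries.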

How the data were processed

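The deposited files hold, per library, whole-number counts of reads per Ensembl gene, without normalization. The authors made these counts with bcl2fastq 2.20.0.422, FastQC, STAR and featureCounts on mm10 with the Ensembl 96 annotation; the strand setting is not given in the sources used here. Groups came from the sample labels. Of 55536 gene identifiers, 55450 matched GENCODE M21, the source of symbols, positions and exon lengths. The row outside the Ensembl genes stayed out of totals and tests and took 0.0002% to 0.0307% of a library.

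Counts were fitted in R 4.3.3 with edgeR 4.0.16 (TMM, filterByExpr, glmQLFit and glmQLFTest, 1 mean per group, 11 libraries), with Benjamini-Hochberg adjustment over 20307 genes. The thresholds of the study's methods were kept: an adjusted p below 0.05 and a change above 1 on the log2 scale in either direction. CPM are scaled by TMM; log2 CPM used for correlations have a prior count of 2. Ratios used counts plus 0.5 and exact permutation tests in Python 3.11.15 (numpy 2.4.6, scipy 1.17.1, pandas 2.3.3; figures matplotlib 3.10.9). Alternatives were DESeq2 1.42.0, RLE factors, other filters, no fold threshold, a replicate block, libraries of 32 weeks alone, the compared groups alone, population as the only factor, *Dsg1* paralogs summed, and omission of each library. The fit was tested on simulated data. Depth was 17409131 to 46542177 counts per library. Each library pools 2 mice. Outside the block setting, p-values take the 11 libraries as independent, although those with the same number may share a pool. They measure the spread between libraries and not between separate pools. The study's methods describe 3 replicates, each of material from 2 mice, from which the populations were sorted, so libraries with the same number were taken to be paired, which the labels do not state. The fit without the block was kept as planned, and the blocked value is given where it changes a call. As a check, residuals about each group mean were correlated. Same-numbered libraries gave a median r of 0.08 in 15 pairs (-0.42 to 0.59, 7 of them over 0.1). The 30 other pairs gave -0.02 (-0.60 to 0.51, 2 of them over 0.1). Residuals sum to 0 within a group, which pushes the other pairs opposite to the same-numbered ones, so this check cannot decide the pairing.

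The members, the gene lists and the tests were chosen with earlier results of these data known. Named were all members, genes of the desmosome and protease lists that were called or were among the 4 most abundant of their list, and the 5 genes outside the lists most like the members' mean. *Pkp2*, *Cdsn*, *Dsg1c*, *Dsg4*, *Klk5*, *Klk14*, *Cdh1* and *Ctnnb1* are named beyond this rule, after their values were seen.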

Additional observations from a re-analysis of the deposited data

Results flagged for a closer look

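The row outside the Ensembl genes, which enters no comparison here, was above its highest level in the tdTneg libraries (4.89 CPM) in 5 tdT+ libraries. It was at 133.3 and 252.4 CPM in tdT+CD49f+CD34+ replicates 1 and 3 and at 254.3, 223.8 and 307.4 CPM in tdT+SCA-1+ replicates 1, 2 and 3. The library labelled as replicate 2 of tdT+CD49f+CD34+ cells had 37 counts of it, 2.05 CPM (95% Wilson interval 1.49 to 2.83, counting error only). No member's level and none of the 5 ratios had a library far enough from the others of its population to be set apart (Dixon's test at the 95% level in 30 sets of 5 or 6 libraries, of which chance would flag about 1 in 20).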

How the results depend on the processing

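Counts of called members moved by more than 1.5 times in these settings. Only libraries of 32 weeks gave 0 in place of 3 between the populations, 0 in place of 1 within tdT+ and 0 in place of 3 within tdTneg cells, where 1 tdTneg SCA-1+ library remains and is assumed to vary like the others. Within tdT+ cells the count was 2 with DESeq2, with every gene of at least 1 count and with the 2 groups compared alone (*Dsg1a*, *Pkp1*), and 2 without a fold threshold (*Jup*, *Pkp1*). Within tdTneg cells it was 1 with the 2 groups alone (*Pkp1*). In the tdT comparison of CD49f+CD34+ cells it was 2 in place of 0 with DESeq2 and with every gene of at least 1 count, and the difference of the tdT effects gave 1 in place of 0 in both (*Dsc1*). Omission of single libraries gave 2 to 3 called members between the populations, 1 to 2 within tdT+ cells (2 without tdTneg CD49f+CD34+ replicate 2), 0 to 3 within tdTneg cells and 0 in the tdT comparisons and their difference. Population as the only factor called 2 (*Dsg1a*, *Pkp1*).

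Ratio differences ran, over omissions, from 2.10 to 2.82 (*Dsg1a* to *Dsg3*), 1.05 to 1.77 (*Dsc1* to *Dsc3*), 0.43 to 0.80 (*Dsg2* to *Dsg3*), -1.33 to -0.71 (*Dsc2* to *Dsc3*) and -1.25 to -1.12 (*Pkp3* to *Pkp1*). In libraries of 32 weeks *Dsg1a* to *Dsg3* was 2.43 and *Pkp3* to *Pkp1* was -1.25, with adjusted p of 0.286 and 0.143 (exact permutation tests of 35 arrangements). Unadjusted, these tests gave p of 0.114 and 0.0286, and the latter is the smallest that 35 arrangements allow. A ratio that reaches this limit alone stays at 0.143 after adjustment over the ratios. The test at 32 weeks thus cannot decide whether the call of *Pkp3* to *Pkp1* holds. With the replicate number as a block, *Dsg1a* to *Dsg3* was 2.47 (exact permutation, adjusted p = 0.0694), and the block changed no other call of a member or ratio. No direction of a member that had an unadjusted p under 0.05 turned in any setting. With 2 libraries in 1 group, changes of the rarer members are poorly resolved. Over all genes, calls between the populations numbered 2347, against 3309 with DESeq2, 3917 without a fold threshold and 299 at 32 weeks. In the tdT comparison of CD49f+CD34+ cells they numbered 2, against 332 (DESeq2), 166 (at least 1 count) and 20 (at least 10 counts in every library), and in the difference of the tdT effects 79, against 772, 568 and 263. They were 1715 within tdT+, 963 within tdTneg and 470 in the tdT comparison of SCA-1+ cells, against 3143, 2051 and 1124 with DESeq2. Over omissions of single libraries the calls ran from 1160 to 2510 between the populations, 1174 to 2233 within tdT+, 55 to 1300 within tdTneg, 0 to 7 and 97 to 700 in the tdT comparisons of CD49f+CD34+ and SCA-1+ cells, and 1 to 376 in the difference. The low ends of 1160 and 55 were without tdTneg SCA-1+ replicate 1, those of 97 and 1 without replicate 2. RLE factors moved the median over all genes of the difference of the tdT effects from 0.05 to -0.07 on the log2 scale. The causes of these shifts were not tested.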
